A study of Mus musculus with 12 samples.

Results

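Transcripts of 10 inflammatory and regulatory cytokines were followed in the proximal colon of APCMin/+ mice and WT mice. The genes, *Il1b*, *Tnf*, *Il6*, *Il10*, *Il18*, *Il33*, *Il22*, *Il17a*, *Ifng* and *Tgfb1*, were taken by symbol from the 38924 Ensembl genes of the count tables, and all 10 were found. The RNA came from 12 female C57BL/6J mice killed at 6 weeks of age, 6 APCMin/+ and 6 WT, with 1 library from each mouse. The Min allele is a germline mutation that truncates *Apc*, a tumour suppressor of the Wnt pathway. It is present in every cell and was carried on 1 of the pair of chromosomes, beside a normal copy. No mouse was treated, and the study placed this age before neoplasia can be detected. The genotypes were housed in separate cages, so cage and genotype cannot be told apart, and the sample labels do not say which mouse came in which shipment.

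Cytokines are small secreted proteins through which immune cells, epithelium and stroma signal to each other. IL-1β, IL-18 and IL-33 belong to 1 family. The first pair are made as inactive precursors and cut by caspase-1, whereas IL-33 is stored in the nucleus and released on damage. TNF and IL-6 are made by macrophages and other cells early in inflammation, IL-17A, IL-22 and IFN-γ by T cells and innate lymphoid cells, and IL-10 and TGF-β1 restrain the response in the gut wall.

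The genotype comparison used edgeR's quasi-likelihood test, fitted to 20311 genes that reached 10 counts in 3 or more mice. A cytokine was called changed where its Benjamini-Hochberg FDR was under 0.05 and its level differed by 2-fold or more. Of the 6 cytokines in that fit (*Il1b*, *Tnf*, *Il10*, *Il18*, *Il33*, *Tgfb1*), 0 passed, with FDR between 0.908 and 0.938, and 0% of all tested genes passed. In the same fit without the filter, which holds all 10 cytokines, 0 passed as well. DESeq2 called 27 of the 20311 genes (0.133%) and 0 of the cytokines. The study, which used edgeR with the same FDR and fold limits, lists *Il18* among its genes higher in APCMin/+ mice. That call was not obtained here, and the cause of the difference was not tested. At an unadjusted p under 0.05 in the quasi-likelihood test, *Il18* was higher and *Il10* was lower in APCMin/+ mice, 2 of 6 cytokines against 5.27% of all tested genes. The CPM of APCMin/+ and WT mice overlapped for all 10 cytokines, and failed to overlap for 0.118% of tested genes. CPM are counts scaled to a common library total after TMM normalization, and RPKM are CPM per kilobase of gene length. The CPM given for a limit of 3 counts, and for counts pooled over mice with their intervals, used the library totals without TMM factors.

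Each library held between 50313805 and 197914821 counts on genes, at which 3 counts corresponded to 0.0152 to 0.0596 CPM. The total did not differ between genotypes beyond its spread (two-sided exact permutation test of the log2 total, p = 0.281). The APCMin/+ mice M10_2 and M13_1 stood apart. The sum of posterior *Hox* genes, which mark the distal gut, was 470 and 555 CPM in this pair and from 1.03 to 2.93 CPM in the other 10 mice, although all 12 samples were labelled proximal colon. Results that rest on M10_2 and M13_1 are given with and without them. Epithelial markers (*Krt8* most abundant) summed to between 7111 and 13869 CPM, so colonic mucosa was present in every library. Smooth muscle markers (*Myh11* most abundant) summed to between 4391 and 6959 CPM, so the tissue also held muscle. Of the 6 muscle markers, 3 (*Des*, *Cnn1* and *Actg2*) were higher in APCMin/+ mice at an unadjusted p under 0.05 in edgeR's quasi-likelihood test. Such a p was reached in that direction by 703 of the 20311 tested genes. *Acta2*, *Tagln* and *Myh11* did not reach it, with log2 fold changes of 0.13, 0.26 and -0.02. Without M10_2 and M13_1, 2 of the 6 (*Des* and *Actg2*) were higher at such a p. In that fit 317 of 19978 genes had such a p in either direction. In such a mixture, fewer cells of a type and less RNA per cell cannot be told apart.

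The cytokines spread over a wide range of levels (the plot of RPKM by mouse). On the RPKM scale, *Il18* had the highest level, with a median over 12 mice of 33.2, above 93.8% of the 28449 genes with a count. *Il33* followed at 5.24 RPKM (above 71.9% of genes) and *Tgfb1* at 2.29 RPKM (above 61.2%). *Il1b*, at 0.454 RPKM, and *Tnf*, at 0.241 RPKM, lay below the middle of the genes, above 45.8% and 40.7% of them. *Il10* stood at 0.0789 RPKM, *Il6* at 0.0243 RPKM and *Ifng* at 0.0167 RPKM, and the median of *Il22* and of *Il17a* was 0. *Il18* exceeded *Il33* in 12 of 12 mice, and the ranges of these neighbours did not overlap. From *Il33* down to *Il10*, each cytokine exceeded the next in 11 of 12 mice, with overlapping ranges, and *Il10* exceeded *Il6* in 10 of 12. The lower neighbours were not separated. *Il6* exceeded *Ifng* in 7 of 12 mice and *Ifng* exceeded *Il17a* in 8 of 12, while *Il17a* exceeded *Il22* in 1.

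**Figure D1:**
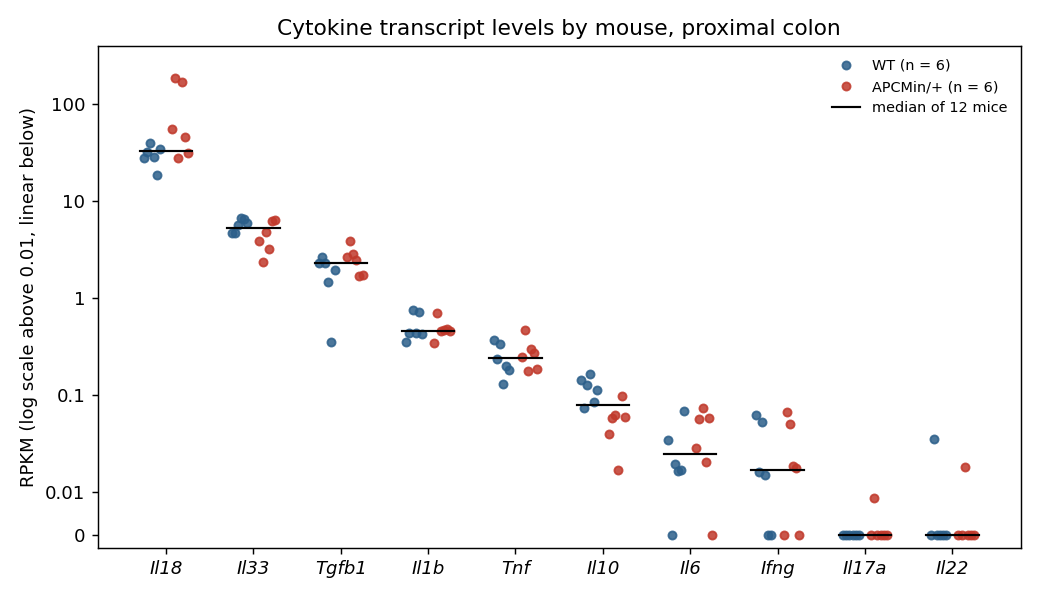
RPKM of the 10 cytokines in each of the 12 mice, ordered by their median (black bar), on an axis that is logarithmic above 0.01 and linear below it. Blue points are the 6 WT and red points the 6 APCMin/+ mice. Median levels run from 33.2 RPKM for *Il18* to 0 for *Il17a* and *Il22*, and the 2 highest *Il18* points are M10_2 and M13_1.

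The sequence before the transcription start differed among the cytokines. RefSeq promoters (GRCm38.p6) were given for 9 of the 10 cytokines, all but *Il10*, with 2 starts for *Il33*. TATAAA, the core of the TATA box, began between 35 and 22 bases before the start on the gene's strand in 5 of these 10 promoters (*Il1b*, *Tnf*, *Ifng*, *Il17a* and the second start of *Il33*), against 1.83% of all 32851 promoters. Anywhere in the 250 bases before the start, on either strand, 12.4% of promoters held it. The 60 bases up to the start are shown 5′ to 3′ on the gene's strand for *Il1b*, *Tnf*, *Ifng* and *Il17a*, which had a match. For contrast they are shown for *Il6*, *Il18* and *Tgfb1*, which had none in these 60 bases. The promoters of *Il33* are not shown. Capitals mark TATAAA.
*Il1b* (chr2:129371140-129371199, minus strand): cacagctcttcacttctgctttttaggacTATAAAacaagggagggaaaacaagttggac
*Tnf* (chr17:35202008-35202067, minus strand): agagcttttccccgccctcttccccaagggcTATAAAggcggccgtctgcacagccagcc
*Ifng* (chr10:118440986-118441045, plus strand): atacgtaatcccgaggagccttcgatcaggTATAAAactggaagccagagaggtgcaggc
*Il17a* (chr1:20730845-20730904, plus strand): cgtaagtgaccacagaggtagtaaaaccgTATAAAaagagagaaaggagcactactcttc
*Il6* (chr5:30013054-30013113, plus strand): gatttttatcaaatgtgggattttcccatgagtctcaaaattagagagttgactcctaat
*Il18* (chr9:50554640-50554699, plus strand): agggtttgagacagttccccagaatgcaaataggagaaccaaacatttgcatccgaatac
*Tgfb1* (chr7:25686942-25687001, plus strand): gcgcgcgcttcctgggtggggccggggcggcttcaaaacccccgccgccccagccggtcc
A match of letters is a description of the sequence and not a bound site. *Il18* and *Il22* also held TATAAA, 175 to 170 bases before the start on the opposite strand in *Il18* and 170 to 165 bases before it in *Il22*.

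*Il18* (ENSMUSG00000039217.6, chr9:50554827-50581840) encodes IL-18, which intestinal epithelium makes constitutively and which drives IFN-γ production by lymphocytes. Its CPM had a lowest, median and highest value of 19.8, 36.1 and 131.7 in the APCMin/+ mice and of 13.3, 21.7 and 28.6 in the WT mice. M10_2, at 131.7 CPM, and M13_1, at 122.2 CPM, were the highest, with 5.83 and 5.41 times the median of the other 10 mice (22.6 CPM). Those 10 mice spanned 13.3 to 39.7 CPM, and within them the genotypes overlapped. The APCMin/+ mean was 61.3 ± 51.4 CPM (SD, n = 6) and the WT mean 21.6 ± 5.14 CPM (SD, n = 6), which gave a log2 fold change of 1.51 with a standard error of 0.46. The two-sided exact permutation test on log2(CPM + 0.1) gave p = 0.0455 (on ranks of CPM, p = 0.132). This p lay between 0.0087 and 0.117 over the 12 exact permutation tests that each left out 1 mouse, and was above 0.05 in 10 of them.

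Without M10_2 and M13_1, the log2 fold change of *Il18* was 0.40 (standard error 0.23) and the exact permutation p was 0.205. The 4 remaining APCMin/+ mice averaged 28.5 ± 9.22 CPM (SD, n = 4). Other signals moved with these 2 mice. *Ly6g*, a neutrophil surface marker, stood at 74.9 CPM (M10_2) and 97.9 CPM (M13_1), and did not exceed 0.472 CPM in the other 10 mice. The other 5 genes of the neutrophil list did not follow it. *S100a8* and *S100a9* had group means from 0.0610 to 0.0855 CPM, *Cxcr2* and *Mpo* were near 0, and *Retnlg* was lowest in M13_1 (0.121 CPM), with 0.596 CPM in M10_2 and up to 4.80 CPM elsewhere. The sum of the 6 ran from 0.741 to 98.2 CPM in APCMin/+ mice and from 1.10 to 5.35 CPM in WT mice. Adipocyte markers were lowest in M10_2 (3.46 CPM) and M13_1 (8.22 CPM), against 31.3 to 226.8 CPM elsewhere. The part of these signals in the level of *Il18* was not tested. *Bco2*, on the opposite strand, overlaps the first part of *Il18* in GENCODE M21, and *Tex12* lies inside it. The strand setting of the counting is not given in the sources used here, so shared reads could not be assigned. *Bco2* ranged from 6.88 to 20.8 CPM with a median of 9.86, and was 20.8 CPM in M10_2 and 19.6 CPM in M13_1. *Tex12* ranged from 0.280 to 1.63 CPM, with 1.06 CPM in M10_2 and 0.519 CPM in M13_1.

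*Il33* (ENSMUSG00000024810.10, chr19:29925114-29960718) encodes IL-33, an alarmin of epithelial and stromal nuclei that acts on regulatory T cells, mast cells and group 2 innate lymphoid cells. Its CPM ran from 6.78 through a median of 12.5 to 18.3 in APCMin/+ mice, and from 13.5 through 16.9 to 19.5 in WT mice. M10_2 (6.78 CPM) and M13_1 (9.20 CPM) were the lowest of the 12, opposite to their place in *Il18*, and the genotypes overlapped. The means were 12.9 ± 4.69 CPM and 16.6 ± 2.59 CPM (SD, n = 6 each), a log2 fold change of -0.36 (standard error 0.22), with an exact permutation p of 0.115. Without M10_2 and M13_1 the log2 fold change was -0.11, and without M10_2 alone it was -0.23.

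*Il1b* (ENSMUSG00000027398.7, chr2:129364570-129371139) encodes IL-1β, the inflammasome product of activated macrophages. It had between 36 and 264 counts in a mouse. In CPM it ran from 0.662 through 0.876 to 1.33 in APCMin/+ mice and from 0.672 through 0.828 to 1.42 in WT mice. High and low mice were found in both genotypes: M16_1 and M17_1 of the WT mice and M10_2 of the APCMin/+ mice were the 3 highest. The means of 0.919 ± 0.221 CPM and 0.985 ± 0.317 CPM (SD, n = 6 each) differed by less than either SD. The log2 fold change was -0.10 with a standard error of 0.23, and the exact permutation p was 0.823. Without M10_2 and M13_1 the log2 fold change was -0.27. The antisense gene *Il1bos* overlaps *Il1b* and was counted at 0.243 CPM or less.

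*Tnf* (ENSMUSG00000024401.8, chr17:35199381-35202007) encodes TNF, which acts through receptors on almost every cell. It had between 24 and 150 counts in a mouse, and its CPM ran from 0.291 through 0.423 to 0.757 in APCMin/+ mice and from 0.214 through 0.353 to 0.598 in WT mice. M10_2 was the highest of the 12, followed by the WT mouse M17_2, and the genotypes overlapped. The log2 fold change was 0.21 (standard error 0.30) with an exact permutation p of 0.532. It was -0.10 without M10_2 and M13_1, -0.0095 without M10_2 alone and 0.19 without M13_1 alone. The difference of mean log2(CPM + 0.1) was 0.018 without M10_2 alone, so hardly any difference was left without that mouse.

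**Figure D2:**
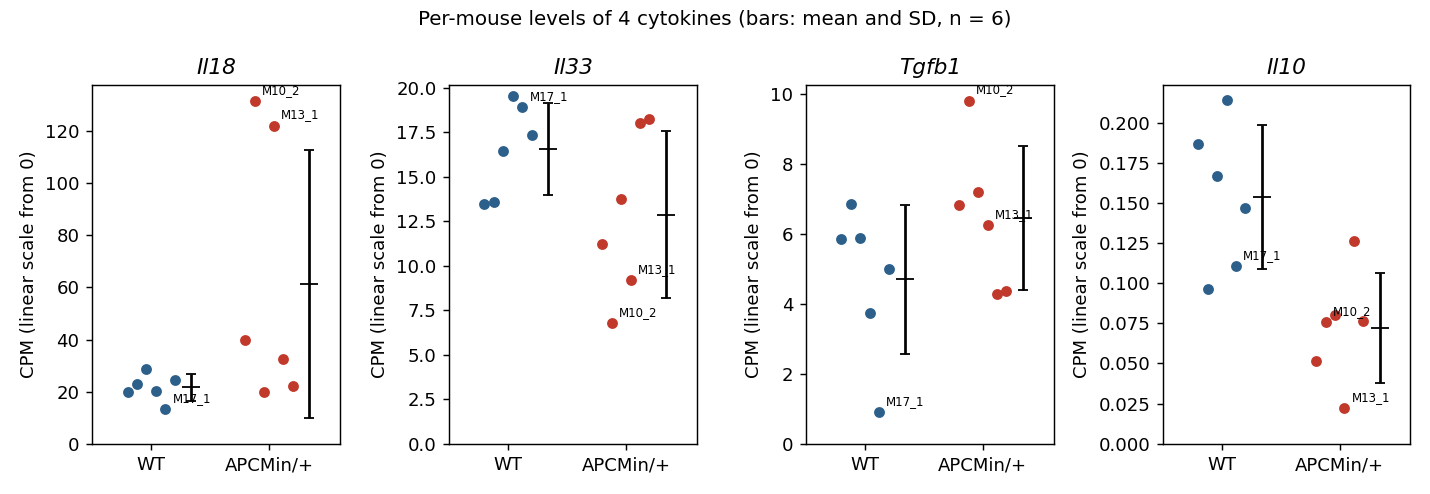
CPM of *Il18*, *Il33*, *Tgfb1* and *Il10* in each mouse, on linear axes that start at 0, with the mean and SD of the 6 mice of each genotype beside the points. M10_2 and M13_1 are the highest in *Il18* and the lowest in *Il33*, M17_1 is the lowest in *Tgfb1*, and *Il10* is lower in most APCMin/+ mice without a gap between the genotypes.

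*Il10* (ENSMUSG00000016529.5, chr1:131019845-131024974) encodes IL-10, the cytokine of macrophages and regulatory T cells whose loss leads to colitis in mice. Its raw counts were 10, 15, 8, 2, 12 and 6 in the APCMin/+ mice M8_2, M10_2, M18_2b, M13_1, M2_A and M20_1. They were 10, 10, 16, 24, 12 and 12 in the WT mice M17_2, M19_1, M16_1, M18_2a, M17_1 and M18_b. In CPM the APCMin/+ mice ran from 0.0221 to 0.126 and the WT mice from 0.0961 to 0.214, so that M2_A was the only APCMin/+ mouse inside the WT range. The means were 0.0720 ± 0.0345 CPM and 0.154 ± 0.0450 CPM (SD, n = 6 each), and the log2 fold change was -1.08 (standard error 0.36). The two-sided exact permutation p was 0.0065, where 0.0022 is the smallest that 6 against 6 allows, and it lay between 0.0043 and 0.0152 with each mouse left out in turn. Without M10_2 and M13_1 the log2 fold change was -0.89 and the exact permutation p was 0.0286. In edgeR's quasi-likelihood test the Benjamini-Hochberg FDR over all genes was 0.908, so *Il10* did not pass. Pooled over mice, *Il10* had 53 counts in APCMin/+ mice and 84 in WT mice, or 0.0712 CPM (exact Poisson 95% interval 0.0534 to 0.0932) and 0.148 CPM (0.118 to 0.183). The intervals cover counting error only. The ends of a read pair appeared to be counted separately, since 32 of the 33 counts above 0 of *Il6*, *Il10*, *Il22*, *Il17a* and *Ifng* were even, as were 78.6% of all values from 1 to 20. A count of 2 is then a single fragment, and the intervals are too narrow.

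The T and NK cell markers were lower with *Il10*. All 10 of 10 had a lower mean in APCMin/+ mice, against 10474 of all 20311 genes tested, with a median log2 fold change of -0.37. At an unadjusted p under 0.05 in edgeR's quasi-likelihood test, 2 of them were lower (*Cd3g* and *Klrb1c*), against 368 of all genes. Without M10_2 and M13_1, 0 of 10 had such a p and the median was -0.21. The marker genes had sums from 10.4 to 19.07 CPM in APCMin/+ mice and from 13.5 to 23.7 CPM in WT mice. Their sum was lowest in M13_1 (10.4 CPM), where *Il10* was also lowest, but other mice did not follow this order. The WT mouse M17_2 had the lowest sum of its genotype (13.5 CPM), with *Il10* at 0.187 CPM, above all mice but M18_2a. M17_1 had the highest sum (23.7 CPM), with *Il10* at 0.111 CPM. Macrophage markers (*Lyz2* most abundant) summed to between 205 and 469 CPM in APCMin/+ mice and between 266 and 463 CPM in WT mice. Of these markers, 7 of 9 were lower and 0 had an unadjusted p under 0.05 in the same test. Their median log2 fold change was -0.06, and it turned to 0.04 without M10_2 and M13_1. Of the muscle markers, 5 of 6 were higher in APCMin/+ mice and 1 (*Myh11*) was lower, mostly opposite to the T and NK cell markers. The part of these cell types in the level of *Il10* was not tested.

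*Tgfb1* (ENSMUSG00000002603.9, chr7:25687002-25705077) encodes TGF-β1, which is secreted in a latent form and restrains T cells and epithelial growth. Its CPM ran from 4.27 through 6.53 to 9.80 in APCMin/+ mice and from 0.903 through 5.42 to 6.83 in WT mice. M10_2 was the highest, and the WT mouse M17_1, at 0.903 CPM, lay far below the next mouse at 3.72 CPM. The means were 6.45 ± 2.05 CPM and 4.69 ± 2.13 CPM (SD, n = 6 each), a log2 fold change of 0.46 (standard error 0.37), with an exact permutation p of 0.206. It was 0.24 without M17_1, 0.27 without M10_2 and M13_1, and 0.05 without all 3. M17_1 also had the lowest levels of GC-rich genes relative to the other mice. The median log2 deviation of its GC-richest genes minus that of its GC-poorest genes was -0.65, against -0.31 to 0.32 in the other mice, and the *Tgfb1* transcript, with 52.5% GC, is richer in GC than 65.2% of genes. The part of GC content in the value was not tested.

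*Il6* (ENSMUSG00000025746.7, chr5:30013114-30019981) encodes IL-6, the inducer of the acute phase response. It was near the detection floor, taken as a median under 10 counts over the 12 mice, as were *Ifng*, *Il22* and *Il17a*. The counts of *Il6* were 6, 12, 8, 2, 6 and 0 in the APCMin/+ mice and 2, 0, 2, 2, 2 and 6 in the WT mice, in the order used for *Il10*. The pooled levels were 0.0457 CPM (34 counts, exact Poisson 95% interval 0.0316 to 0.0639) and 0.0246 CPM (14 counts, 0.0135 to 0.0413). The genotypes overlapped, with an exact permutation p of 0.374 (0.457 without M10_2 and M13_1).

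*Ifng* (ENSMUSG00000055170.3, chr10:118441046-118445892) encodes IFN-γ, the macrophage-activating cytokine of T helper 1 and NK cells. It had 0, 16, 6, 2, 2 and 0 counts in the APCMin/+ mice and 4, 2, 6, 2, 0 and 0 in the WT mice. M10_2 held 16 of the 26 counts of the APCMin/+ mice, and the WT mice held 14. The exact permutation p was 0.870, and the direction of the difference turned when M10_2, or any of several other mice, was left out.

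*Il22* (ENSMUSG00000074695.3, chr10:118204942-118210047) encodes IL-22, which lymphoid cells make and epithelium answers with antimicrobial proteins. It had 2 counts in M18_2b, 4 in the WT mouse M19_1 and 0 in the other 10 mice. A nearly identical copy of *Il22*, *Iltifb*, had no count in any mouse, and reads shared by both copies could have been lost. *Il17a* (ENSMUSG00000025929.4, chr1:20730905-20734496) encodes IL-17A, the cytokine of T helper 17 cells that draws in neutrophils. It had 2 counts in M10_2 and 0 in the other 11 mice. In the WT mice that is 0 of 568224819 counts, which allows a level of up to 0.00528 CPM at the limit of 3 counts over the group, or 0.0106 CPM if 3 fragments give 2 counts each. Differences between genotypes in *Il22* and *Il17a* were not detectable at this depth.

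**Figure D3:**
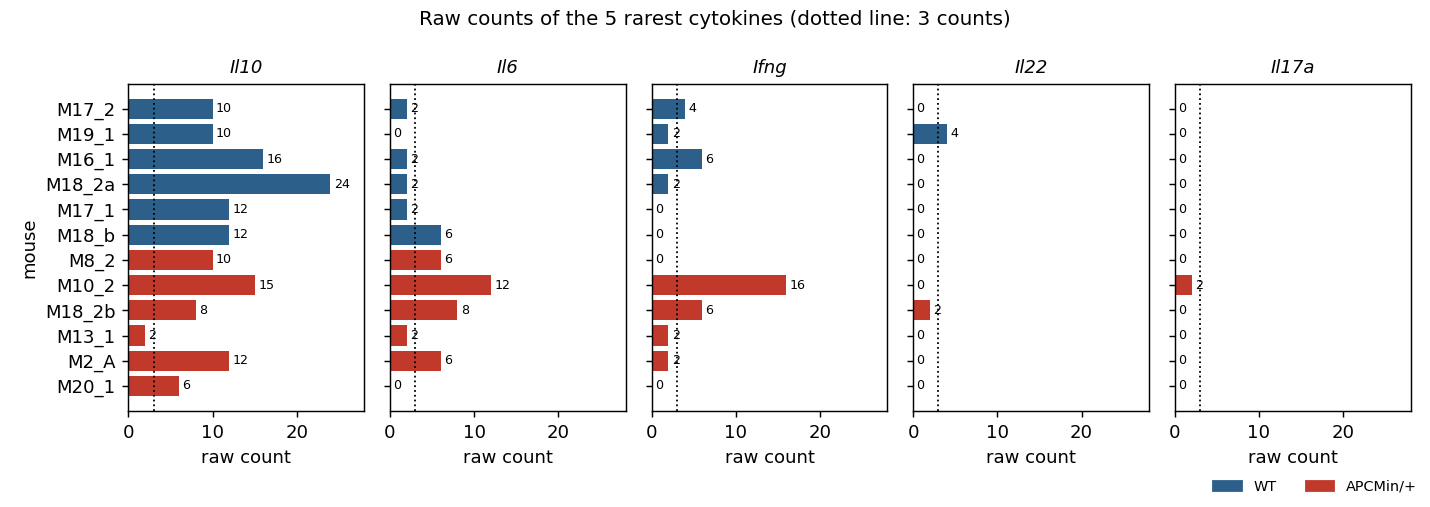
Raw counts of the 5 rarest cytokines in each mouse, with WT mice in blue, APCMin/+ mice in red, and a dotted line at 3 counts. *Il10* reached the line in all WT mice and in 5 of 6 APCMin/+ mice, whereas *Il22* passed it in 1 mouse and *Il17a* in none.

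**Figure D4:**
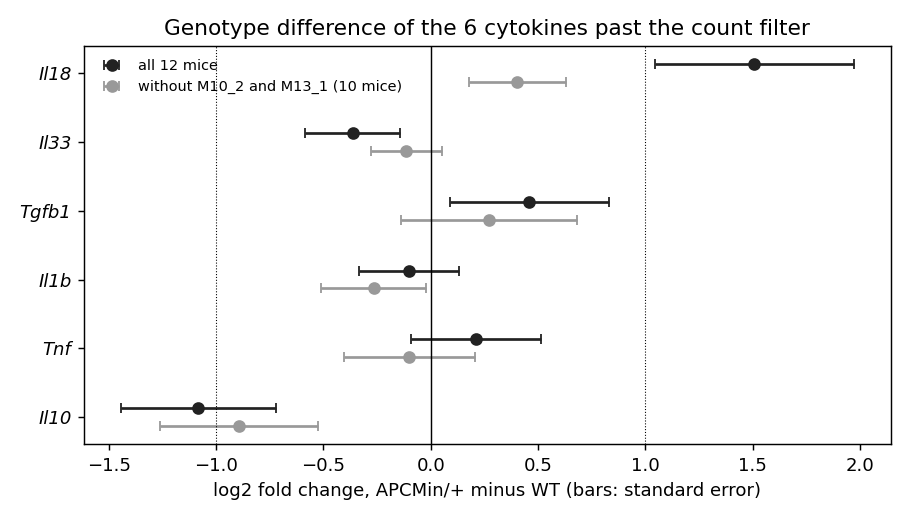
Log2 fold changes (APCMin/+ minus WT) and their standard errors for the 6 cytokines past the count filter, over all 12 mice (black) and without M10_2 and M13_1 (grey). Dotted lines mark a 2-fold difference. *Il18* moves from 1.51 to 0.40 and *Tnf* from 0.21 to -0.10, whereas *Il10* moves from -1.08 to -0.89.

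The receptors for these cytokines were present at levels that did not follow the levels of the ligands (the plot of cytokines beside receptor chains). On the RPKM scale, the chain that binds IFN-γ, *Ifngr1*, had a median of 87.7, while its ligand had 0.0167. *Tnfrsf1a* (24.9 RPKM), *Tgfbr2* (23.2), *Il22ra1* (15.8), *Il1r1* (7.77), *Il17ra* (5.12), *Il6ra* (2.50) and *Il10ra* (1.23) were also above their ligands. *Il18r1* (0.892 RPKM) and *Il1rl1* (0.854 RPKM), the receptor chains for IL-18 and IL-33, were the only 2 of the 10 below their ligands. Of 18 receptor chains tested, 0 were called and 0 had an unadjusted p under 0.05 in edgeR's quasi-likelihood test, with a median log2 fold change of 0.06 against -0.01 over all genes. *Il18r1* differed by -0.37 on the log2 scale (standard error 0.33), and by 0.01 without M10_2 and M13_1. It was lowest in M10_2 (1.27 CPM) and M13_1 (1.52 CPM), against 3.53 to 6.48 CPM in the other 10 mice, so in these mice the receptor chain was low where *Il18* was high. *Il1rl1* was 2.36 and 2.23 CPM in M10_2 and M13_1 and 2.79 to 13.07 CPM elsewhere. Its log2 fold change was 0.21, and 0.63 without these mice.

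**Figure D5:**
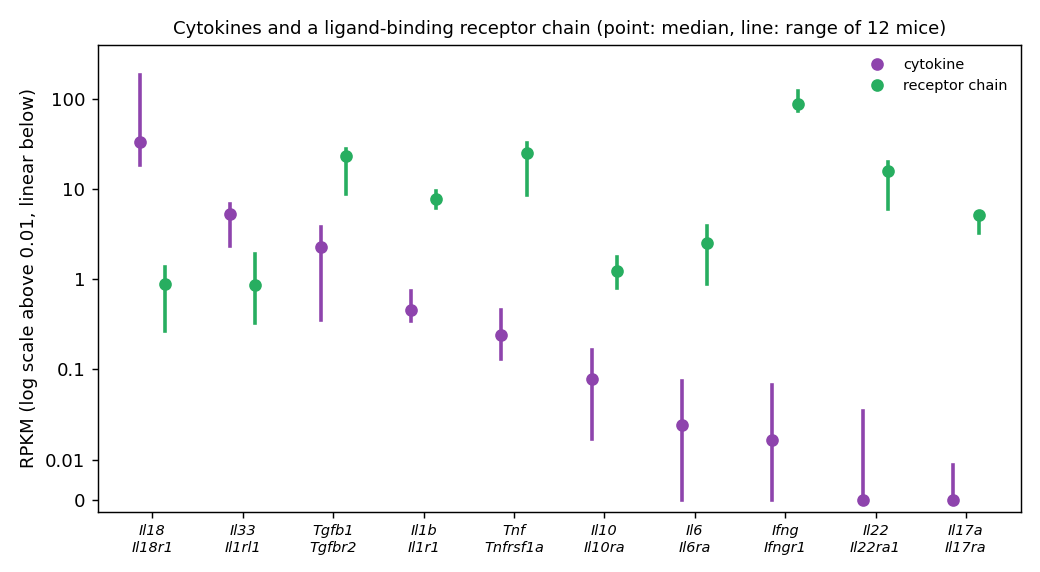
Median (point) and range over 12 mice (line) of each cytokine (purple) and of 1 ligand-binding receptor chain (green), in RPKM, on an axis that is logarithmic above 0.01 and linear below it. *Il18* and *Il33* lie above their receptor chains, and the other 8 cytokines below theirs.

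Among the inhibitors of these pathways, 0 of 8 were called, and 2 had an unadjusted p under 0.05 in edgeR's quasi-likelihood test, both higher in APCMin/+ mice. Over all 20311 genes, 703 were higher at such a p. *Il1rn*, the natural antagonist of the IL-1 receptor, had a log2 fold change of 1.81 (exact permutation p = 0.344). M10_2 and M13_1 had 82.4 and 106.1 CPM of it, where the other 10 mice had 5.10 to 16.3 CPM, and without this pair the log2 fold change was -0.25. *Tnfaip3*, a brake on NF-κB signalling, had a log2 fold change of 0.70 (exact permutation p = 0.141), with 86.7 and 85.3 CPM in the same mice and 25.2 to 46.8 CPM elsewhere, and 0.06 without them. Without these mice, *Nfkbia*, the NF-κB inhibitor IκBα, alone of the 8 had an unadjusted p under 0.05 in edgeR's quasi-likelihood test, against 317 of 19978 genes. Its log2 fold change was 0.34 (0.23 in all 12 mice). *Nfkbia* was named after its values were seen.

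Of 16 genes for the maturation and activation of IL-1β, IL-18, TNF and TGF-β1, 0 were called and 0 had an unadjusted p under 0.05 in edgeR's quasi-likelihood test. The lowest p belonged to *Nlrp3*, an inflammasome sensor, with a log2 fold change of 0.52, and 0.35 without M10_2 and M13_1. Its quasi-likelihood p was 0.0506 and its exact permutation p was 0.0433. *Ltbp3*, a binding protein of latent TGF-β, followed with 0.33 (exact permutation p = 0.0671), and 0.28 without the pair. The caspase-1 gene *Casp1*, named after its values were seen, ranged from 153.5 CPM in M10_2 to 286.0 CPM in M17_1.

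Of 34 other cytokines, 21 passed the count filter, 0 were called, and 2 had an unadjusted quasi-likelihood p under 0.05, both higher in APCMin/+ mice. Over all 20311 genes, 703 were higher at such a p. *Tgfb2*, encoding a second TGF-β, had 10.4 CPM on average in APCMin/+ mice and 7.02 CPM in WT mice, which is 0.56 higher on the log2 scale (exact permutation p = 0.0260), and 0.46 without M10_2 and M13_1. Of the muscle markers, 5 of 6 were higher in APCMin/+ mice (median log2 fold change 0.34), as were 5 of 6 fibroblast markers (median 0.35). Without M10_2 and M13_1 these medians were 0.24 and 0.28. No marker of either list was called, and the part of these markers in the level of *Tgfb2* was not tested. *Il34*, encoding a macrophage growth factor, stood at 15.5 and 15.3 CPM in M10_2 and M13_1 and at 2.16 to 3.70 CPM in the other 10 mice, with a log2 fold change of 1.25 that became -0.11 without these mice. *Il9*, *Il20* and *Il24* had no count in any mouse. *Il17f*, the relative of *Il17a*, was below the filter with group means of 0.0372 and 0.0164 CPM.

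Of 10 transcription factors downstream of these cytokines or directing their makers, 0 were called and 0 had an unadjusted quasi-likelihood p under 0.05. *Irf4* (log2 fold change -0.50, exact permutation p = 0.143) and *Stat3* (0.34, exact permutation p = 0.234) had the lowest p, and their log2 fold changes were -0.38 and 0.15 without M10_2 and M13_1. Of 18 target genes, 17 passed the filter and 0 were called. *Saa1*, an acute phase gene, was the only target of the 17 at an unadjusted quasi-likelihood p under 0.05, against 5.27% of all tested genes. Its level was 1012 CPM in M10_2 with 821 CPM in M13_1, against 47.3 to 124.6 CPM in the other 10 mice, a log2 fold change of 1.95 (exact permutation p = 0.323) and -0.16 without them. *Cxcl10*, a chemokine induced by interferon, had a log2 fold change of 0.76 (exact permutation p = 0.0823), and 0.29 without M10_2 and M13_1. It was 3.87 CPM in M10_2 and between 0.598 and 1.46 CPM in the other 11 mice. *Reg3g*, an antimicrobial gene that answers IL-22, was 0.182 CPM in M10_2, 2.14 CPM in M13_1 and 16.8 to 52.1 CPM in the others, and was named after its values were seen.

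For the 5 cytokines with at least 10 counts in every mouse, the genes whose CPM followed theirs most closely over the 12 mice were found by Spearman's rho. These correlations are descriptions across libraries that share depth and base composition. *Il18* was followed by *Gm15401* (rho 0.972), *Pdzd7* (0.965) and *Prdx6* (0.944), and all 3, like *Il18*, were highest in M10_2 and M13_1 (Pearson's r of log2 CPM 0.990, 0.974 and 0.888). *Il33* was followed by *Fpgt* (0.986), *Rp2* (0.972) and *Bmpr1a* (0.972), and *Tgfb1* by *Nop53* (0.986), *Zfp362* (0.979) and *Scarb1* (0.965). *Tnf* was followed by *Mmp11* (0.895), *Pdlim4* (0.895) and *Gdf15* (0.867). The genes nearest to *Il1b* were *Hba-a2* (0.930), a haemoglobin gene of red cells, and the ribosomal protein genes *Rpl22* (0.923) and *Rps4x* (0.923).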

How the data were processed

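Per the labels and the study's methods, the authors sequenced proximal colon RNA from 6 APCMin/+ and 6 WT mice in paired ends. The submitters' processing notes name STAR 2.3.0, featureCounts and GRCm38.p2. The authors deposited 1 table of unnormalized counts per mouse, with gene lengths, which were used for RPKM. The strand setting and the counting of pairs are not given in the sources used here. Symbols came from GENCODE M21 (37607 of 38924 genes).

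The counts were fitted with edgeR 4.0.16 (R 4.3.3; TMM, factors 0.906 to 1.10; glmQLFit and glmQLFTest; Benjamini-Hochberg) over all 12 mice, with genotype as the only term. The filter was 10 counts in at least 3 mice. Cytokines below it were read from the fit without a filter. Single genes were tested with a two-sided exact permutation test over 924 splits of log2(CPM + 0.1). Standard errors are the log2 fold change divided by the root of F. DESeq2 1.42.0, other scalings and filters, and fits leaving out mice were alternatives. None of the 66 pairs of libraries agreed within sampling noise (lowest chi-square per degree of freedom 15.6), so no library was taken as deposited again under another name. Each sample is named as a separate mouse.

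The members and lists were chosen with earlier results of these data known. Named genes were the 10 cytokines, 1 receptor chain for each, the genes past the threshold or else the 2 with the lowest unadjusted p of each other list, and the 3 genes most like a cytokine. Other marker lists gave no called gene: dendritic cells summed to 9.05 to 19.4 CPM, B and plasma cells to 188 to 2127, follicles to 2.65 to 30.0, fibroblasts to 1101 to 2834 and endothelium to 82.1 to 143.1.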

Additional observations from a re-analysis of the deposited data

Results flagged for a closer look

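Among 19 groups of 6 mice tested for an extreme mouse (10 cytokines in 2 genotypes, without *Il17a* in WT mice, where all were at 0), 4 held a mouse separated from its group by more than Dixon's 95% limit, a limit that about 1 in 20 groups of continuous values passes by chance. For *Il22* and *Il17a*, where 1 mouse has a count and the others have 0, the limit is passed by construction. *Il22* was highest at 0.0201 CPM in M18_2b among APCMin/+ mice and at 0.0384 CPM in M19_1 among WT mice, each the only mouse of its genotype with a count. *Il17a* was highest at 0.0101 CPM in M10_2, the only mouse with a count. *Tgfb1* was lowest at 0.903 CPM in M17_1 among WT mice.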

How the results depend on the processing

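No cytokine passed the threshold under any alternative run, whereas the study's own edgeR analysis lists *Il18* as higher in APCMin/+ mice. The count over all genes was 0 in the main test, 27 with DESeq2 and 15 with edgeR's likelihood ratio test, where the cause was not tested. Other scalings, filters and fits leaving out mice gave 0. The log2 fold change of *Tnf* turned to -0.10 without M10_2 and M13_1 and to -0.15 without M10_2, M13_1 and M17_1 (chosen after seeing the data), and that of *Il1b* to 0.04 at most with 1 mouse left out (range -0.24 to 0.045). For *Tnf* that range was -0.0095 to 0.36. In the permutation test, whose values are differences of mean log2(CPM + 0.1), *Il1b* turned on ranks (0.667 ranks higher in APCMin/+ mice) and ranged from -0.17 to 0.039 with 1 mouse left out, and *Tnf* (-0.054) and *Ifng* (-0.094) turned without M10_2 and M13_1. With 1 mouse left out, *Il22* ranged from -0.078 to 0.044 and *Ifng* from -0.084 to 0.11. The exact permutation p of *Il18* was above 0.05 in 10 of 12 tests leaving out 1 mouse, all but those without M18_2b or M20_1. The p of *Il33* was 0.0498 without M20_1 (exact permutation test). No paired analysis was possible because the labels give no replicate numbers (those used here follow accession order and pair no mice). With counts halved (chosen after seeing the data), *Il10* fell below the filter. Near 10 counts, as in *Il10*, or below, depth limits what can be shown.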
